A study of Homo sapiens with 24 samples.

Results

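U6-related copies are short genomic stretches that resemble the U6 small nuclear RNA but lie away from the rows that carry the name of a U6 gene. They were chosen from the small RNA table as rows whose deposited name begins with U6_, whose type is not lncRNA and whose length is at most 250 bp, and 939 of the 175946 rows met the rule. The cells were HEK293, a human embryonic kidney line labelled wild type, and every culture overexpressed 1 protein. The GFP group carried eGFP and served as the control, and the LMNA, LMNB1 and LMNB2 groups carried LaminA, LaminB1 and LaminB2, the filament proteins of the nuclear lamina. Each group had 3 small RNA libraries and 3 ATAC-seq libraries, 24 in all. ATAC-seq counts where a transposase can reach DNA, so its counts report accessibility. How the proteins were delivered is not stated in the labels. The overexpressed genes and markers of the line were not analysed here.

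U6 RNA forms part of the catalytic core of the spliceosome, where its ACAGAGA box pairs with the 5′ splice site. Its genes belong to the type 3 genes of RNA polymerase III, whose promoter lies upstream of the transcribed part, so a copy of the RNA inserted elsewhere does not bring that promoter with it. Human chromosomes hold many such copies, most of them annotated as pseudogenes. The table also holds 9 rows named as U6 genes or as their near-identical relatives (RNU6-1, RNU6-2, RNU6-7, RNU6-8, RNU6-9 and RNU6-3P to RNU6-6P), which were used for comparison only.

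The 939 copies lay on 24 chromosomes, with 92 on chromosome 1 and 81 on chromosome 2. Positions in GRCh38 matched an annotated RNU6 gene or pseudogene for 905 copies, and the other 34 had no match. Of the 905, 676 began exactly 25 bp before the RefSeq start, so the deposited intervals carry a pad of 25 bp on each side. The longest interval kept was 207 bp with the pad, and the 1 row left out for length had 513 bp. Without that pad the copies were 56 to 157 bp long with a median of 105 bp, and 353 of them (37.6%) had the 106 or 107 bp of the U6 genes. Protein-coding gene spans held 456 copies (48.6%). The gene tables used give spans without exons, so intron and exon were not told apart. The median distance to the nearest RefSeq transcription start, measured from the padded interval, was 28890 bp over the 895 copies with a start to measure from. Of these, 87 lay within 5000 bp of a start and 6 within 1000 bp.

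One copy, RNU6-1055P, lay 26 bp from the start of the antisense gene F11-AS1, measured from the edge of its padded interval. It is the only member whose bases are in the RefSeq windows around transcription starts (GRCh38.p14), and it is printed here to show what such a copy looks like in place. The window is chr4:186501009-186501308, read on the plus strand from 5′ to 3′, and the capitals mark the 107 bases of the copy at chr4:186501109-186501215.
RNU6-1055P: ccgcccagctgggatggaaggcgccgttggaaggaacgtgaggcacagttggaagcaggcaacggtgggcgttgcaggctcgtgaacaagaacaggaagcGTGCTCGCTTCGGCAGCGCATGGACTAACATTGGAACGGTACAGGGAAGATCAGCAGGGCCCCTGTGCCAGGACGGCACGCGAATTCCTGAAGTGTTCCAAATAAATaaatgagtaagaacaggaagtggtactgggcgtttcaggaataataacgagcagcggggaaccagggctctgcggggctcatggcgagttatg

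Motifs were searched on both strands of this sequence, and the 1 match found overlapped no other. ACAGAGA had 0 matches in the copy, and ACAGGGA, added to the search after the sequence had been read, had 1. The TATA string TATAAA had 0 matches in the 100 bases before the copy. The string TTTT, which ends transcription by RNA polymerase III, had 0 matches in the copy and 0 in the 93 bases after it. Among the 35116 RefSeq windows, 6.36% held ACAGAGA, 5.82% held ACAGGGA, 11.5% held TATAAA and 71.4% held TTTT. Those shares are for whole windows of 300 bases, longer than each stretch searched, so they are not matched in length. RNU6-1055P had 1 small RNA count, in GFP replicate 3. Its ATAC window had 93 counts over the 12 libraries and 2.13 times the count density of its 5000 bp flanks.

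The small RNA libraries held 132507051 to 195074742 counts each and the ATAC libraries 156043245 to 290158229. Replicates were separate samples by their labels, which do not say whether the cultures were separate, so p-values measure the spread between these samples. The labels give 1 batch number for every small RNA library and another for every ATAC library, so that number follows the assay. Whether cultures or libraries were prepared in batches within an assay is not stated. In the small RNA libraries the TMM scaling factors ran from 0.63 in GFP replicate 1 to 1.31 in GFP replicate 3, both in the control group. In the pooled cells of a bulk library, fewer cells with an RNA and less of it per cell cannot be told apart.

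Small RNA counts were sparse at most copies. Of the 939 copies, 527 (56.1%) had at least 1 count in any of the 12 libraries, 63 had counts in all 12 and 31 averaged at least 10 counts per library. No count was found for 412 copies, which allows up to 3 counts over the 12 libraries, or 0.0016 CPM (counts scaled to a library of 1000000), counting error only. A single count was all that 155 copies had. Each library detected between 159 and 226 copies. The GFP libraries together detected 342 copies, LMNA 319, LMNB1 297 and LMNB2 280, and 150 copies had a count in every group. The share with a count stood near that of dispersed SRP RNA copies, 55.2% of 6766, and below those of dispersed Y RNA copies, 90.9% of 110, and of U1, U2, U4 and U5 copies, 82.3% of 339. These shares are not corrected for length.

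Few copies held most of the counts. The copies had 16036 counts in all, of which the 8 highest by total held 32.6%, the 17 highest 51.7% and the 100 highest 91.0%. The 9 U6 genes together had 47854 counts, and each had between 3513 and 6331. The lowest U6 gene, RNU6-8 at 106 bp, had 3.32 times the counts of the highest copy, RNU6-42P at 107 bp. How reads that match several places were assigned is not given in the sources used here, so counts of near-identical rows, U6 genes included, are uncertain. Sequence identifiers in the deposited names were shared by 19 copies in 7 sets of 2 to 4, and 1 of these 19 had a count, against 526 of the 920 copies with an identifier of their own.

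**Figure D1:**
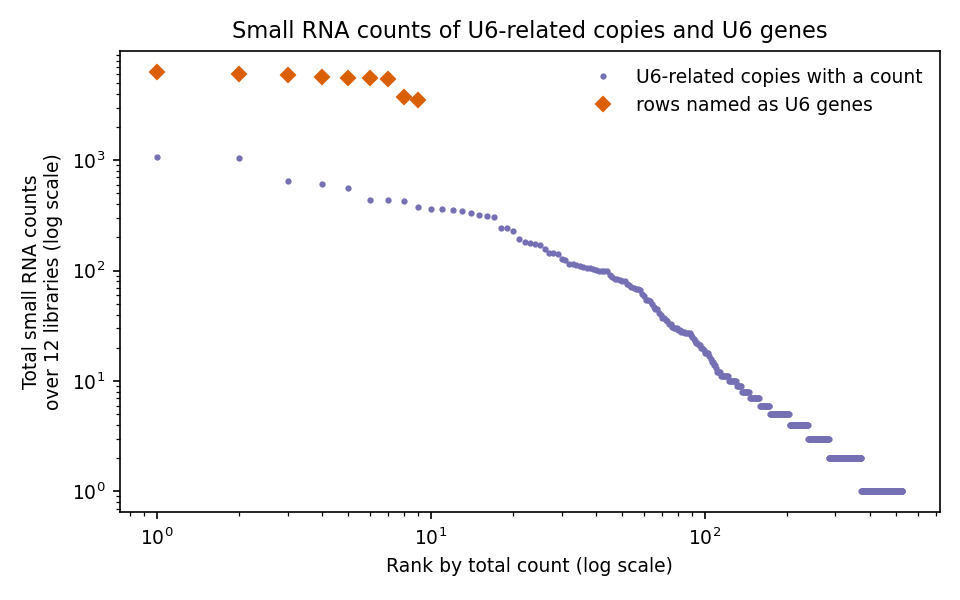
Total small RNA counts over the 12 libraries (log scale) against rank (log scale) for the 527 U6-related copies with a count and the 9 rows named as U6 genes. The U6 genes lie between 3513 and 6331 counts, and every copy lies at 1059 or less.

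RNU6-42P and RNU6-48P had the highest levels. RNU6-42P lies at chr3:196784955-196785111 on the minus strand, within the span of PAK2, a kinase gene. It had 122, 65 and 77 counts with GFP, 130, 87 and 131 with LMNA, 85, 69 and 77 with LMNB1, and 88, 78 and 50 with LMNB2. Its mean level was 0.653 ± 0.343 CPM (SD, n = 3) with GFP, 0.725 ± 0.110 with LMNA, 0.461 ± 0.0472 with LMNB1 and 0.462 ± 0.0935 with LMNB2. The GFP libraries overlapped those of each lamin group.

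RNU6-48P lies at chr1:27325194-27325350 within the span of TMEM222, 2949 bp from its start. It had 80, 36 and 107 counts with GFP, 126, 65 and 107 with LMNA, 77, 70 and 99 with LMNB1, and 126, 74 and 77 with LMNB2. Here too the groups overlapped, with means between 0.489 CPM in LMNB1 and 0.619 CPM in LMNA. RNU6-39P in CCDC102B, RNU6-14P in CCDC171, RNU6-20P in KIFC3, RNU6-820P in PIP5K1B and RNU6-70P, outside protein-coding genes, followed with mean levels from 0.347 to 0.224 CPM. These 7 were 99 to 107 bp long and 6 of the 7 lay in a protein-coding gene span. Over all copies, 311 of the 456 inside such a span had a count (68.2%), against 216 of the 483 outside (44.7%). Copies of the U6 genes' length held 62.4% of the counts and made up 37.6% of the copies. Where the gene's strand was known, copies on the opposite strand had a count in 158 of 213 cases (74.2%) and copies on the same strand in 115 of 182 (63.2%). These shares describe the copies and were not tested, and whether counting used strand is not given in the sources used here.

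**Figure D2:**
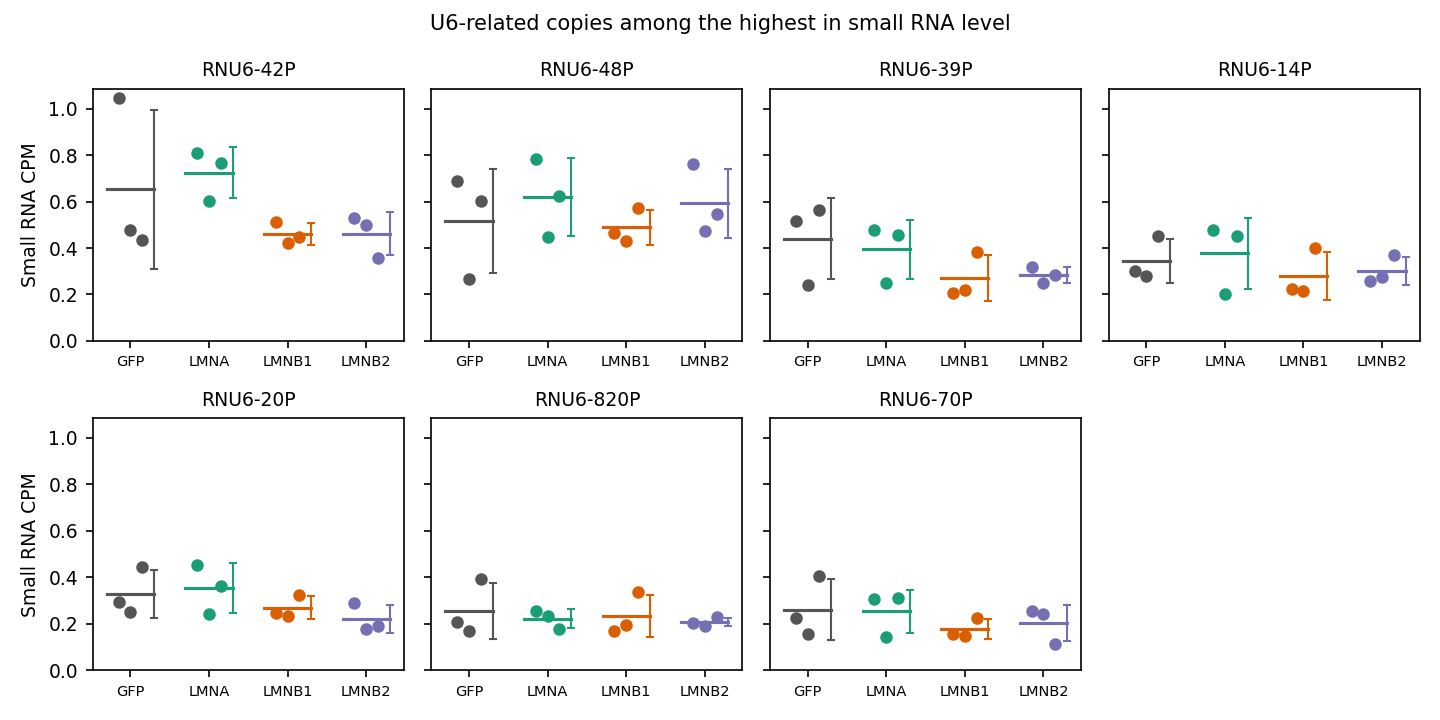
Small RNA CPM in each of the 12 libraries for 7 of the U6-related copies with the highest mean level. Points are libraries, horizontal lines are group means and bars are 1 SD of 3 libraries. RNU6-42P averages 0.653 CPM in GFP and 0.462 CPM in LMNB2, and the GFP and LMNB2 ranges overlap in all 7 panels.

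The copies as a sum did not separate the groups. Their summed level was 10.3 ± 3.84 CPM with GFP, 9.30 ± 2.55 with LMNA, 7.29 ± 1.27 with LMNB1 and 7.06 ± 1.20 with LMNB2 (SD, n = 3). The ranges overlapped, from 6.30 to 13.9 CPM in GFP and from 6.33 to 8.44 CPM in LMNB2, and the highest value was GFP replicate 3. The 9 U6 genes summed to 27.3 ± 11.2, 30.0 ± 4.33, 21.1 ± 0.617 and 25.1 ± 2.03 CPM in the same order. Their highest library was GFP replicate 1, at 40.2 CPM.

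Only 46 copies (4.90%) had enough counts for the count filter, against 19.3% of all rows, so the group tests describe those 46 and not the copies at large. In edgeR's quasi-likelihood test over all 4 groups, 0 of the 46 passed an adjusted p of 0.05, where 1.68% of the 33893 rows tested did. At an unadjusted p of 0.05 the count was 5 of 46, or 10.9%, beside 15.9% of all rows. DESeq2 called 1 copy, RNU6-434P. The 3 lowest joint p-values belonged to RNU6-434P (Benjamini-Hochberg adjusted p = 0.0855), RNU6-31P (0.118) and RNU6-855P (0.258).

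LaminB2 overexpression gave the only calls of a copy against GFP. In edgeR, 2 of the 46 tested copies were lower in LMNB2 and 0 were higher, where 2.66% of all rows tested were called and 0.752% were called lower. RNU6-434P, at chrX:54343521-54343677 in the span of WNK3, a kinase gene, had 11, 13 and 16 counts in GFP and 3, 3 and 1 in LMNB2. Its LMNA libraries had 15, 2 and 6 counts and its LMNB1 libraries 8, 5 and 5. It passed the count filter only through GFP replicates 2 and 3 and LMNA replicate 1, so its entry depended partly on its GFP counts. The LMNB1 and LMNB2 libraries were all below the GFP libraries in CPM, and the LMNA libraries overlapped them. In LMNB1 the log2 fold change was −1.12, with an edgeR adjusted p of 0.787. The log2 fold change in LMNB2 was −1.93 with a prior count of 2 and −2.56 ± 0.58 (SE) without it, with an edgeR adjusted p of 0.0312. This interval shares bases with an SRP RNA row of the table, and counts of overlapping rows are uncertain.

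RNU6-31P, at chr2:200829984-200830141 outside protein-coding spans, had 35, 26 and 50 counts with GFP, 32, 21 and 28 with LMNA, 20, 19 and 30 with LMNB1, and 29, 12 and 12 with LMNB2. Its LMNB1 and LMNB2 libraries were all below its GFP libraries in CPM, and the LMNA libraries overlapped them. In LMNB1 the log2 fold change was −0.85, with an edgeR adjusted p of 0.777. Its mean level fell from 0.258 ± 0.0586 CPM in GFP to 0.112 ± 0.0544 CPM in LMNB2 (SD, n = 3). The log2 fold change in LMNB2 was −1.10 with the prior count and −1.18 ± 0.30 (SE) without it, with an edgeR adjusted p of 0.0452. Both calls were sensitive to the fit. With total counts in place of TMM scaling the adjusted p in LMNB2 was 0.0916 for RNU6-434P and 0.242 for RNU6-31P, and DESeq2 gave neither an adjusted p. Leaving out 1 library at a time gave 0 to 2 calls, and without LMNB2 replicate 3 the adjusted p was 0.123 for RNU6-434P and 0.174 for RNU6-31P.

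Among the other tested copies, RNU6V, in the span of GNAI3 at chr1:109591509-109591665, had 13, 3 and 25 counts in GFP and 5, 3 and 6 in LMNB2. Its edgeR adjusted p was 0.126 in LMNB2 and its log2 fold change −1.29. Without GFP replicate 2, the GFP library with 3 counts, it was the one copy called in LMNB2, with a log2 fold change of −1.72 and an edgeR adjusted p of 0.0362. With no count filter its adjusted p was 0.0477. RNU6-855P, in SUSD1, had 6, 5 and 6 counts in GFP and 15, 11 and 6 in LMNB2, an opposite direction with an edgeR adjusted p of 0.372. In LMNB2, 8 copies had an unadjusted p under 0.05, all lower, which is 17.4% of the 46 beside 19.9% of all rows. All LMNB2 libraries lay below all GFP libraries for 5 of the 46 (10.9%) and above for 0, where 22.3% of all rows did not overlap.

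LaminA and LaminB1 gave no call. Against GFP, 0 of the 46 copies passed in LMNA, where 0.0% of all rows did, and 2 had an unadjusted p under 0.05, both lower, which is 4.35% of the 46 beside 5.46% of all rows. In LMNB1, 0 of the 46 passed, where 0.0384% of all rows did, and 6 had an unadjusted p under 0.05, all lower, which is 13.0% of the 46 beside 5.51% of all rows. DESeq2 called 0 copies in LMNA, LMNB1 and LMNB2. In LMNB2 it gave no adjusted p for RNU6-434P and RNU6-31P, so it did not assess those copies there. The libraries of LMNA did not overlap those of GFP for 2 of the 46, where 9.5% of all rows did not, and the same count of 2 held in LMNB1, where 10.1% of all rows did not. Those in LMNB1 were RNU6-434P and RNU6-31P, the copies called in LMNB2, and these comparisons share the GFP libraries. The lowest adjusted p of a copy was 0.895 in LMNA and 0.777 in LMNB1.

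Most tested copies had fold changes below 0 in each lamin group, and 1 control library moved with that. The count below 0 was 32 of 46 in LMNA, 39 in LMNB1 and 36 in LMNB2. The median log2 fold changes were −0.23, −0.39 and −0.46, where the medians over all rows tested were −0.05, −0.05 and −0.04. GFP replicate 3 held the highest level of 17 of the 46 copies and of 0 of the 9 U6 genes. The summed counts of all copies were 0.638 times those of the U6 genes in that library and 0.254 to 0.413 times in the other 11. Without it the medians were 0.16, 0.03 and −0.04. All 3 comparisons share the GFP libraries. The part of that library in the fold changes was otherwise not tested.

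**Figure D3:**
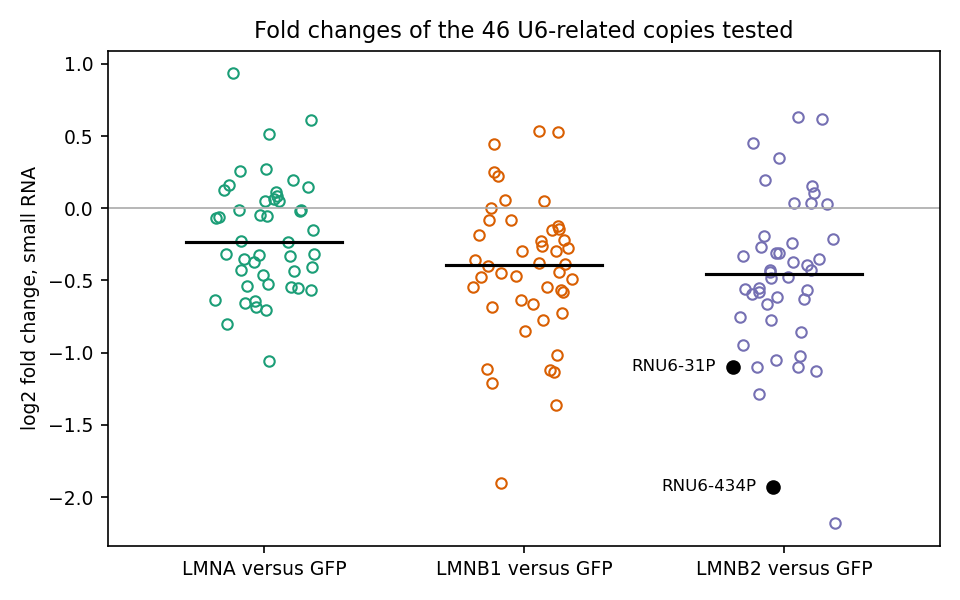
Log2 fold change in small RNA, with a prior count of 2, of the 46 U6-related copies tested in each lamin group against GFP. Open circles are copies, black lines are medians (−0.23, −0.39 and −0.46), and filled circles are RNU6-31P and RNU6-434P, the 2 copies past an adjusted p of 0.05 in LMNB2. Horizontal scatter has no meaning.

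The U6 genes and the other type 3 genes gave no call in any lamin group. The median log2 fold change of the 9 U6 genes was 0.15 in LMNA, −0.34 in LMNB1 and −0.11 in LMNB2, and their lowest edgeR adjusted p was 0.664 in LMNB2. Of the 11 other type 3 rows (RNU6ATAC, RN7SK, RMRP, RPPH1, the 4 Y RNA genes and 3 selenocysteine tRNA genes), 10 were tested and 0 were called in any group, with a lowest adjusted p of 0.228 in LMNB2.

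Accessibility was measured in windows reaching 125 bp beyond each interval, and most windows held few counts. Of the 939 copies, 931 had at least 1 ATAC count in any library, 330 had counts in all 12 and 132 averaged at least 10 per library. The median total was 55 counts over the 12 libraries. The windows summed to 27.7 ± 1.92 CPM with GFP, 26.3 ± 0.731 with LMNA, 27.6 ± 1.84 with LMNB1 and 26.7 ± 1.23 with LMNB2 (SD, n = 3), and the ranges overlapped.

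Most copies had fewer ATAC counts per kb than the DNA around them. The count density of the window over that of its 5000 bp flanks, summed over the 12 libraries, had a median of 0.66, and 693 copies were below 1. The same ratio had a median of 4.34 at the 9 U6 genes, 0.91 over all 17601 rows of at most 250 bp that are not lncRNA, 0.58 at Y RNA copies, 0.77 at U1, U2, U4 and U5 copies and 0.94 at SRP RNA copies. At least 2-fold over the flanks stood 45 copies (4.79%), 8 of the 9 U6 genes and 12.7% of the short rows. How reads were assigned to repeated sequence was not given, and the part of that in these ratios was not tested. The summed ratio of the copies was 0.545 ± 0.0439 with GFP, 0.512 ± 0.0173 with LMNA, 0.539 ± 0.0451 with LMNB1 and 0.529 ± 0.0280 with LMNB2 (SD, n = 3), and the ranges overlapped.

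**Figure D4:**
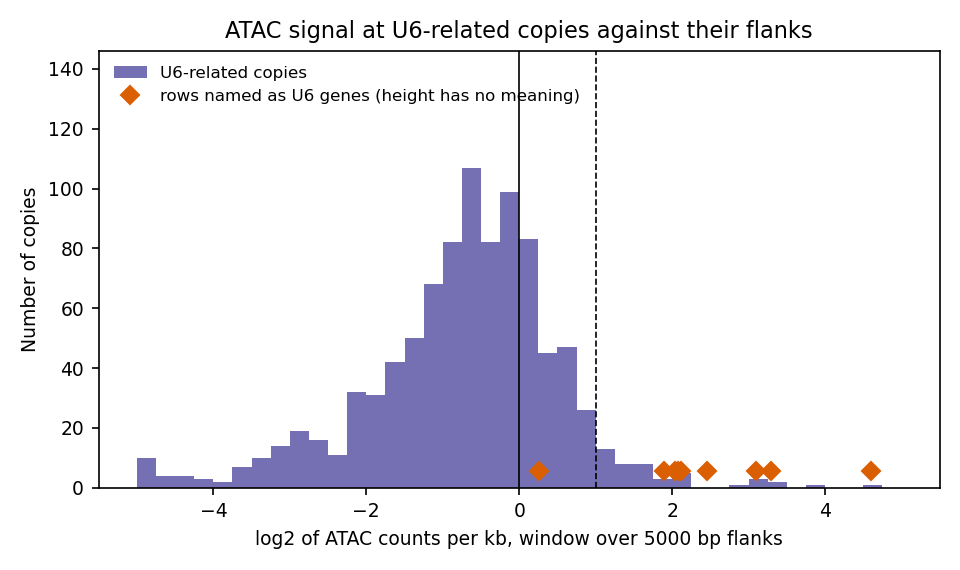
Number of U6-related copies by the log2 ratio of ATAC counts per kb in the window over its 5000 bp flanks, summed over 12 libraries. The solid line marks equal density and the dashed line 2-fold, and ratios under the axis, 0 included, are drawn in the leftmost bar. Diamonds are the 9 rows named as U6 genes, whose median ratio was 4.34 against 0.66 for the copies.

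A few copies stood well above their flanks. RNU6-554P, at chr15:43602518-43602673 in the span of STRC, a gene of the inner ear, had 26.7 times the density of its flanks. It had 161, 165 and 133 counts with GFP, 201, 161 and 255 with LMNA, 255, 285 and 189 with LMNB1, and 236, 198 and 245 with LMNB2. RNU6-430P, at chr16:89443295-89443449 in the span of ANKRD11, a chromatin regulator, had the most counts of any copy, 3537, and 13.6 times the density of its flanks. It had 191, 141 and 213 counts with GFP, 263, 176 and 348 with LMNA, 399, 371 and 312 with LMNB1, and 409, 311 and 403 with LMNB2. Both had counts in every library of every group.

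At a mean of at least 10 counts, the next ratios were 10.8 at RNU6-656P on chromosome 8, 9.89 at RNU6-1196P in TRIM2, 8.93 at RNU6-1177P in PATJ, 8.70 at an unmatched copy in FAF1, 8.33 at RNU6-559P and 7.60 at RNU6-908P in SVIL. Of the 8 copies with the highest ATAC level, 7 were also among these 8 ratios. The exception was RNU6-1114P, with 719 counts and a ratio of 1.25 over 5000 bp flanks and 0.22 over 500 bp flanks. Of the 45 copies at least 2-fold over their flanks, 2 lay within 5000 bp of a RefSeq start and 29 averaged at least 10 counts. RNU6-554P and RNU6-430P overlap lncRNA rows of the table.

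No tested copy passed the threshold for a difference in accessibility between the groups. The count filter kept 263 copies (28.0%), against 93.1% of all rows. In edgeR's joint test 0 of the 263 were called, where 0.0421% of the 163786 rows tested were. Against GFP, 0 were called in LMNA (0.000611% of all rows), in LMNB1 (0.00305%) and in LMNB2 (0.00244%), and DESeq2 called 0 in each. At an unadjusted p of 0.05 the counts were 13 in the joint test, 12 in LMNA, 15 in LMNB1 and 11 in LMNB2, or 4.94, 4.56, 5.70 and 4.18% beside 5.81, 5.19, 4.78 and 5.72% of all rows. The libraries did not overlap those of GFP for 28 copies in LMNA (background 9.55%), 25 in LMNB1 (8.46%) and 26 in LMNB2 (10.3%), which is 10.6, 9.51 and 9.89% of the 263. Median log2 fold changes were −0.03, 0.04 and 0.00.

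The 3 lowest joint p-values in ATAC were those of RNU6-1085P (adjusted p = 0.665), RNU6-681P in TBL1XR1 (0.710) and RNU6-1154P in STMP1 (0.759), by edgeR. RNU6-1085P had 14, 5 and 15 counts with GFP, 2, 4 and 4 with LMNA, 3, 5 and 12 with LMNB1, and 6, 4 and 1 with LMNB2. Its LMNA and LMNB2 libraries lay below its GFP libraries in CPM, at counts where 1 library can decide the order. The log2 fold change was −1.62 in LMNA (edgeR adjusted p = 0.899) and −1.75 in LMNB2 (0.827). RNU6-681P had 13, 12 and 9 counts with GFP, 4, 3 and 4 with LMNA, 2, 2 and 11 with LMNB1, and 6, 7 and 3 with LMNB2. RNU6-1154P had 2, 5 and 6 counts in GFP and 24, 15 and 21 in LMNB1. RNU6-430P, with far more counts, had a log2 fold change of 0.41 ± 0.15 (SE) in LMNB2 and an edgeR adjusted p of 0.860.

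Small RNA and ATAC totals were little correlated across the copies, most of which had few counts. None of the 8 copies with the highest small RNA level was among the 8 with the highest ATAC level. Lists of 8 drawn at random from 939 copies would seldom share a copy, so that overlap alone says little. RNU6-554P had 0 small RNA counts, RNU6-430P had 5 over the 12 libraries, and RNU6-1196P had 2. Conversely, RNU6-42P had 92 ATAC counts and a ratio of 0.58 over its 5000 bp flanks, and RNU6-48P had 146 and a ratio of 0.15. Of the 45 copies at least 2-fold over their flanks, 24 (53.3%) had a small RNA count, beside 56.1% of all copies. Spearman's rho between the small RNA and ATAC totals was 0.06 across the 939 copies, which share libraries and depth and are not independent replicates. With 412 copies at 0 small RNA counts and 155 at 1, this rho cannot show whether small RNA level and accessibility are related.

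The U6 genes split in ATAC counts at alike small RNA counts. RNU6-1, RNU6-2, RNU6-7, RNU6-8 and RNU6-9 had 2265 to 16945 ATAC counts, and RNU6-3P to RNU6-6P had 118 to 236. The small RNA totals were 3513 to 6331 in the first set and 5467 to 6080 in the second. The ATAC totals of the second set lie in the range of the copies, and their small RNA totals do not. Against 5000 bp flanks, 8 of the 9 U6 genes stood at least 3-fold above, and the lowest ratio was 1.20. Against those flanks, the split in totals is therefore not a split into rows above and below. Over 500 bp flanks 1 of the 9 was below 1, at 0.81. How reads with several matches were assigned is not given, so the alike small RNA totals of these near-identical rows are uncertain.

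**Figure D5:**
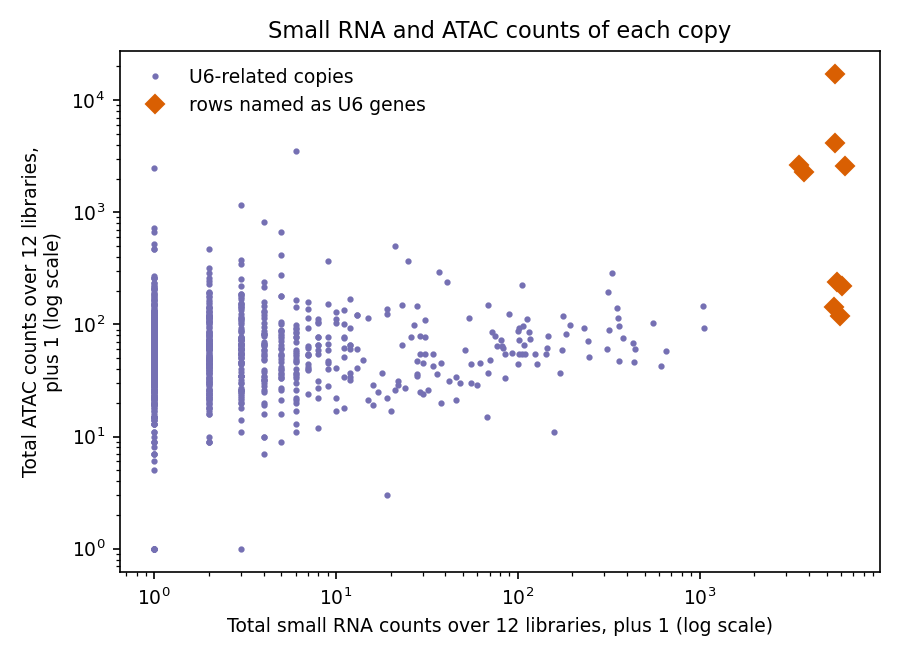
Total ATAC counts against total small RNA counts over 12 libraries each, both plus 1 and on log scales, for the 939 U6-related copies and the 9 rows named as U6 genes. RNU6-430P, the copy with 3537 ATAC counts, had 5 small RNA counts, and the U6 genes form a high and a low group in ATAC at 3513 or more small RNA counts.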

How the data were processed

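Small RNA and ATAC counts per feature were taken as deposited by the authors, as whole-number counts for 12 small RNA and 12 ATAC libraries. The build is GRCh38, per the submitters' processing notes. Aligner, counter, strand setting and the treatment of reads with several matches are not given in the sources used here. Members and gene lists were chosen with earlier results of these data known. Names, gene spans, start distances and the printed sequence came from RefSeq GRCh38.p14 tables, and 44 members on chromosome 8 were not included in the distance count. Positions are 1-based.

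One edgeR 4.0.16 model (R 4.3.3) covered every row of an assay, with filterByExpr, TMM scaling and a robust quasi-likelihood test on group means, with Benjamini-Hochberg adjustment over all rows tested and a threshold of 0.05. CPM uses TMM-scaled library sizes, and log2 fold changes a prior count of 2. Flank ratios divide counts per kb of the window by those of the deposited 500, 5000 or 50000 bp flanks, which start 350 bp outside. The fit was tested on simulated data with less spread than the small RNA libraries. Changes were simulated only in rows with more counts than most tested copies had. That run therefore does not show what the fit can detect at the copies. Replicates of a group differed beyond counting noise, so each counted as 1 sample. Deviations of same-numbered libraries from their group means correlated at 0.13, 0.40 and 0.34 between GFP and LMNA in small RNA, all over 0.1. The numbers were therefore taken as pairs there, from the data and not from the labels. Pairs entered only the replicate block of the closing section, and the main fits, LMNA against GFP included, were unpaired. DESeq2 1.42.0 and the settings in the closing section were alternatives. Copies named were the 8 highest in small RNA level, in ATAC level and in flank ratio (mean of at least 10 counts), every called copy and the 3 lowest joint p-values per assay, of which 1 copy is not reported here. Other names were chosen after their values were seen.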

Additional observations from a re-analysis of the deposited data

How the results depend on the processing

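Count calls of the copies in small RNA depended on the fit. The joint test gave 0 calls, 3 with no count filter (RNU6-434P, RNU6-31P and RNU6-42P) and 1 with DESeq2. LMNB2 against GFP gave 2 calls, 4 with no filter (RNU6-434P, RNU6-31P, RNU6V and RNU6-1249P), 1 without lncRNA rows and 0 with an adjusted p under 0.01, with total counts, with a mean of at least 10 counts, with DESeq2 and with only the libraries compared. Leaving out 1 library at a time gave 0 to 2 calls, with 0 without LMNB1 replicate 2, LMNB2 replicate 2 or LMNB2 replicate 3, and RNU6V alone without GFP replicate 2. The adjusted p then ran from 0.0246 to 0.123 for RNU6-434P and from 0.0387 to 0.210 for RNU6-31P. With a mean of at least 10 counts, and with only the libraries compared, RNU6-434P was not tested. DESeq2 gave no adjusted p in LMNB2 for RNU6-434P or RNU6-31P. Beyond such filters the cause was not tested. Both log2 fold changes stayed below 0 in every fit that gave an adjusted p. LMNA and LMNB1 in small RNA, and all 4 ATAC tests, gave 0 calls in every fit.

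For LMNA against GFP in small RNA, where same-numbered libraries paired by their correlations, the replicate block gave 0 calls, with 4 copies against 2 at an unadjusted p under 0.05. In the other comparisons with GFP not every pair was over 0.1, and over all pairs of groups correlations ran from −0.08 to 0.40 in small RNA (7 of 18 over 0.1) and from −0.14 to 0.36 in ATAC (4 of 18). With the block, 2 copies were called in LMNB2 and 0 in the joint test, and it changed no other call.

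With a count in all 12 libraries, 63 copies were detected in small RNA and 330 in ATAC. With a mean of at least 10 counts these were 31 and 132. Among copies sharing no base with another row, 317 of 577 had a small RNA count. Settings added after seeing the data gave 501 without GFP replicate 3 and 372 with at least 2 counts. Copies above their flanks numbered 24 with 50000 bp flanks, 55 with 500 bp flanks, 105 at 1.5-fold and 22 at 3-fold. Total-count scaling moved the median over all rows from −0.04 to 0.19 in small RNA LMNB2, where the copies' median was −0.33, and from 0.00 to 0.19 in ATAC LMNB1, where it was 0.21. Most copies had too few small RNA counts for any group difference to be detectable.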

Other observations

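Copies with a low RefSeq number held much of the small RNA. The 55 copies numbered 100 or less made up 5.86% of all copies and held 44.6% of the counts, and 41 of them (74.5%) had a count. The 849 copies with a number above 100 held 52.0% of the counts. Copies of the U6 genes' length made up 63.6% of the 55 and 36.9% of the 849, and number and length were not separated. In blocks of RefSeq numbers from 101 to 400, 401 to 700, 701 to 1000 and 1001 to 1400, the share with a count was 53.9, 54.1, 53.8 and 56.6%. The median flank ratio in ATAC was 0.67 at the first 55 and 0.66 at the others. This split was chosen after the values were seen and was not tested.

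Single libraries held most counts of a pair of copies. RNU6-842P, on chromosome 8, had 156 of its 241 counts in GFP replicate 3 and 38 in LMNA replicate 3, and it had more counts than any other copy that failed the count filter. RNU6-23P, at chr16:70445269-70445424, had 85 counts in GFP replicate 3 and 186 in LMNA replicate 3, of 358 in all, and 2 to 19 in each of the other 10 libraries. In LMNB2 its log2 fold change was −2.18 and its edgeR adjusted p 0.388. These copies were chosen after their values were seen.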
